A study of Mus musculus with 30 samples.

Results

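The NRF2 antioxidant and glutathione synthesis genes were followed across the livers of male mice given 1 of 2 compounds or the carrier. The members were 10 genes chosen by name: Nqo1, Srxn1, Gsr, Txnrd1, Gclc, Gclm, Slc7a11, Nfe2l2, Keap1 and Osgin1. Each was read from a probe set annotated to that gene alone, taking the one with the highest mean over all 30 Affymetrix arrays. These were 10 of the 18193 genes with such a probe set. All 10 were among the 12795 genes bright enough to be tested (exceeding the median of its array in no fewer than 3 cases). Slc7a11 passed that filter only through DCB arrays, being above the median on 4 arrays, each from a group given DCB.

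The arrays fell into 10 groups of 3 samples, all adult males on a C57BL/6J background. Wild type mice, mice labelled hCAR/hPXR (carrying human CAR and PXR, nuclear receptors for drugs and steroids, in place of the mouse proteins) and mice labelled CARko/PXRko (both receptors deleted) received corn oil (3 days), DCB (1,4-dichlorobenzene, 600 mg/kg daily by gavage, 3 days) or CPA (cyproterone acetate, 160 mg/kg daily by gavage). Mice labelled PXRko, lacking PXR, received corn oil alone. CPA is labelled as 3 days for the CARko/PXRko group and as 6 days for the other two, whereas the protocol describes 3 days throughout. For those other two genotypes, CPA effects therefore set arrays labelled 6 days against controls labelled 3 days. The design states 5 mice per group. The labels do not say that each array is a separate mouse, so p-values reflect only how far these samples scatter, which may be technical.

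NRF2, encoded by Nfe2l2, is a transcription factor that is held in the cytoplasm and marked for degradation by KEAP1. Reactive compounds modify cysteines of KEAP1, after which NRF2 accumulates, enters the nucleus and binds antioxidant response elements with a small MAF partner. Its targets reduce quinones, recycle oxidised thiols and supply glutathione, and the liver relies on them when it handles drugs and solvents. Since this control acts on the protein, the transcript of Nfe2l2 itself need not change when its targets do.

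The core of the antioxidant response element, TGACNNNGC on either strand, was looked for in the RefSeq promoter windows of the members (GRCm38.p6, 250 bases before to 50 bases after an annotated start). Windows existed for 8 of the 10 members. These held 10 windows, 4 of them (1 each in 4 members) with the core, and 12.4% of the 32851 windows of all genes held it. The 4 matches are shown 5′ to 3′ along the gene to mark where such letters lie near the starts of a sulfiredoxin, a glutathione synthesis and a thioredoxin reductase gene, and near that of Nfe2l2 itself. Capitals mark the core.
Srxn1: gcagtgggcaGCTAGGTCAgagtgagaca
Gclm: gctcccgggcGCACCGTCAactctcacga
Txnrd1: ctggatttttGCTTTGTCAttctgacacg
Nfe2l2: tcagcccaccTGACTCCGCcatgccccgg
The Srxn1 stretch lay at chr2:152105542-152105570 with the core starting 28 bases after the start. The Gclm stretch lay at chr3:122245413-122245441, its core beginning at -134 from the start. For Txnrd1 the stretch was chr10:82859104-82859132, in 1 of its 3 windows and at -92 from that start. The Nfe2l2 stretch lay at chr2:75704885-75704913 on the minus strand, at -240. In the first 3 the core reads on the opposite strand, hence the letters GC before GTCA, and in Nfe2l2 it reads along the gene. No match was found in the windows of Nqo1, Slc7a11, Keap1 and Osgin1, which says only that these letters were not in those windows.

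On the log2 scale the median probe set of an array stood between 5.36 and 5.44. The labels were checked against the receptors under corn oil. Nr1i3 (CAR) averaged 9.59 in wild type and 9.80 in PXRko mice, against 6.31 in hCAR/hPXR and 6.24 for CARko/PXRko, and Nr1i2 (PXR) 7.52 in wild type against 4.78, 4.58 and, in PXRko mice, 4.48. These probe sets therefore cannot separate the hCAR/hPXR samples from those of CARko/PXRko mice. Cyp2b10, a standard CAR target, averaged 5.90 under DCB in CARko/PXRko mice and 12.6 under DCB in hCAR/hPXR mice, but under CPA it stood at 9.97 in CARko/PXRko mice, above 6.46 in their controls. All 7 measured hepatocyte markers were above the array median on every array. Transcripts of other tissues stood out on 4 arrays. The median of 17 skeletal muscle markers, relative to wild type corn oil, was 6.27 log2 units higher on CARko/PXRko corn oil replicate 2, 5.83 on CARko/PXRko DCB replicate 3, 1.59 on CARko/PXRko DCB replicate 2 and 1.14 on PXRko corn oil replicate 3. CARko/PXRko DCB replicate 3 also held adrenal cortex (6.62) and brown fat (8.18) markers, and replicate 2 squamous epithelium markers (3.17). Without these 4 arrays 1 CARko/PXRko DCB array and 2 of their controls remain, the lone DCB array being assumed to vary like the other groups. In that fit the DCB differences in CARko/PXRko mice were 2.43 log2 units for Nqo1, 2.29 for Srxn1, 1.00 for Gsr, 0.72 for Txnrd1, 1.06 for Gclc, 0.46 for Gclm, 0.33 for Slc7a11, 0.37 for Nfe2l2 and 0.51 for Osgin1, and Srxn1 was again the member called. The CPA differences there were 2.14 for Nqo1, -0.90 for Nfe2l2 and -1.78 for Osgin1, the 3 members called.

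**Figure D1:**
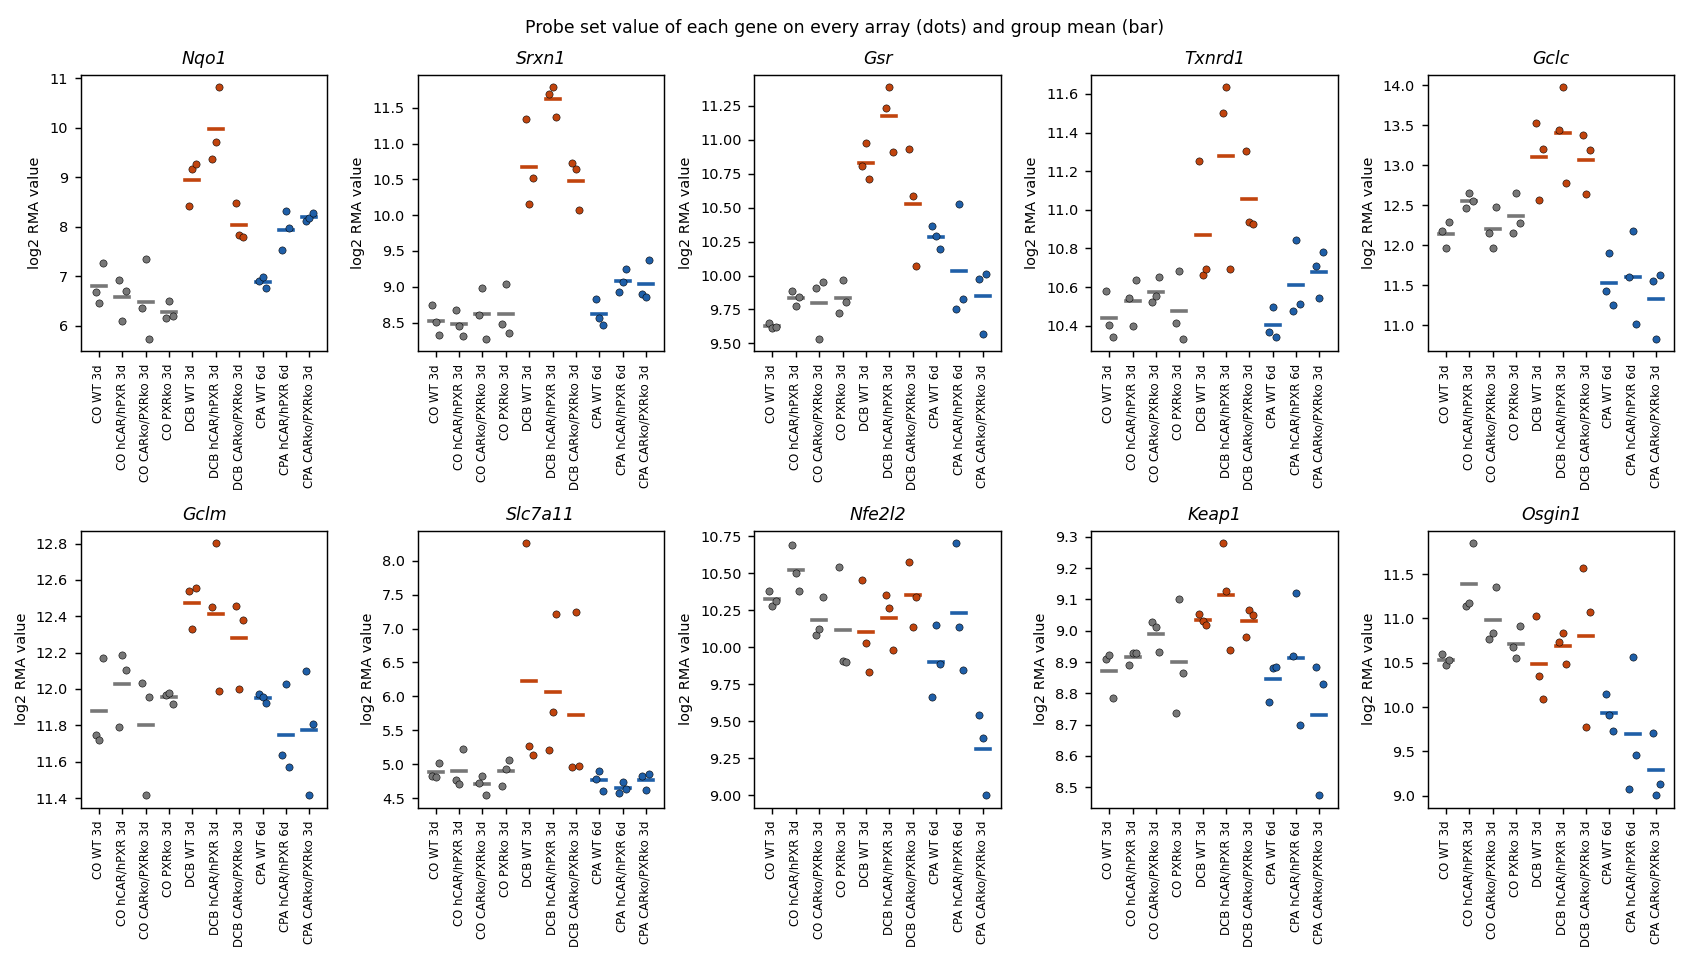
Log2 RMA value of each of the 10 genes (y axes, each panel with its own range) on every array (dots) in the 10 groups (x axis), with the group mean as a bar; grey is corn oil, red DCB and blue CPA. The DCB arrays of Srxn1, from 10.08 to 11.79, lie above every other array, whereas Osgin1 and Nfe2l2 have their lowest arrays under CPA.

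Under DCB the members called were all enzymes that reduce quinones or oxidised thiols. In wild type mice 3 of the 10 members rose, Nqo1 (4.40-fold), Srxn1 (4.43-fold) and Gsr (2.30-fold), and none fell, where 0.61% of all genes tested were called higher and 0.125% lower. A call means an adjusted p under 0.05 in a limma fit over the whole table, with Benjamini-Hochberg adjustment. Among hCAR/hPXR mice 4 of 10 rose, the same 3 and Txnrd1, beside 3.29% of all genes called higher and 4.35% lower. In that comparison 7 of 11 Kupffer cell and macrophage markers (median -0.97) and 2 of 9 stellate cell markers (median -0.91) were also called lower, against 0 of either in the other two genotypes under DCB, where the medians were -0.44 and -0.48 for the former and -0.18 and -0.04 for the latter. Their part in the results was not tested. Among CARko/PXRko mice 1 of 10 rose, Srxn1, beside 0.117% of all genes called higher and 0% lower. The median difference over the 10 members was 0.77 log2 units in wild type, 0.80 in hCAR/hPXR and 0.61 in CARko/PXRko livers, and that over all genes tested was -0.01, -0.02 and 0.01. These medians include Slc7a11, which was tested only because of its DCB arrays.

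**Figure D2:**
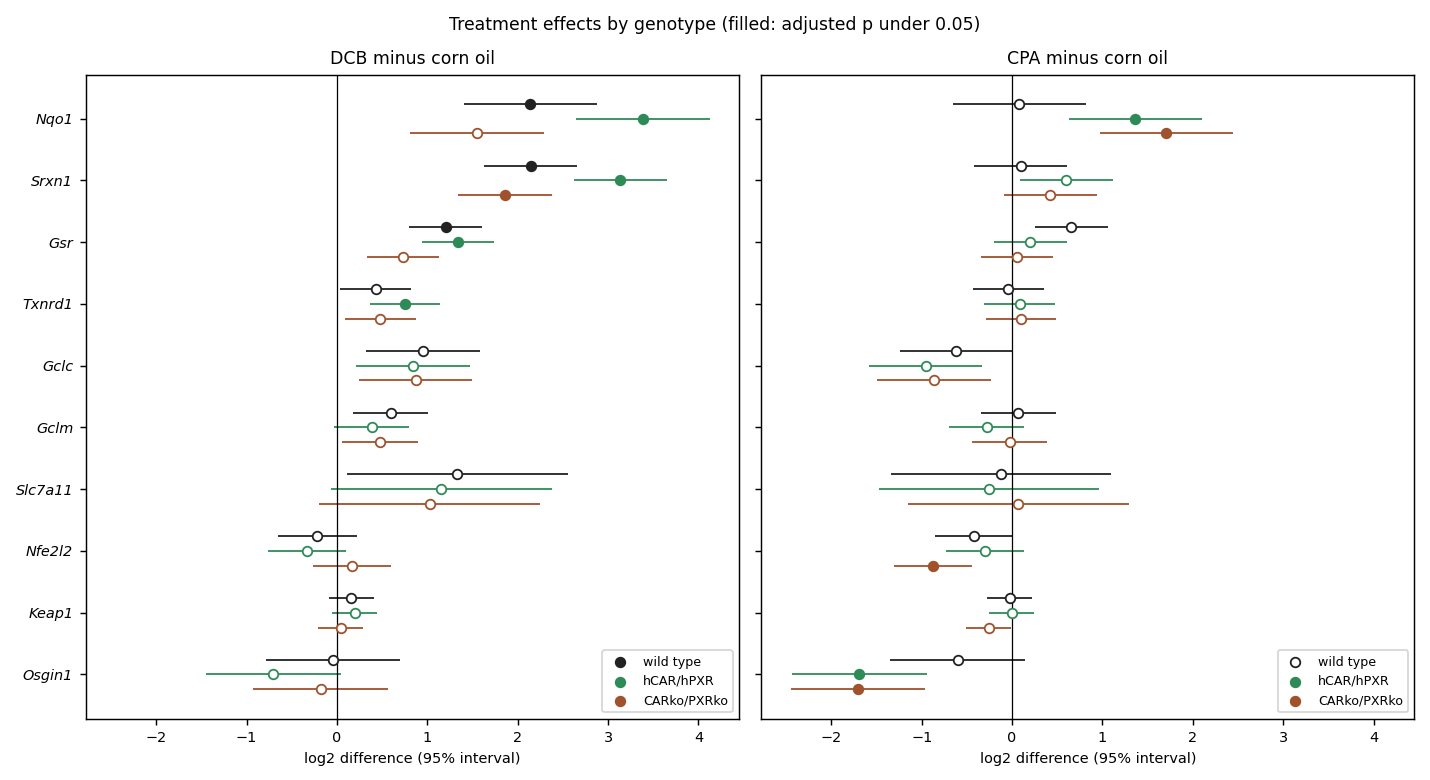
Log2 difference from corn oil in the same genotype (x axis, lines are 95% intervals, n = 3 arrays a group) of each gene (y axis) under DCB (left) and CPA (right), in wild type (black), hCAR/hPXR (green) and CARko/PXRko (brown) mice; filled points have an adjusted p under 0.05. Under DCB the first 7 genes lie right of 0 in all 3 genotypes, and under CPA Gclc, Nfe2l2 and Osgin1 lie left of it.

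Nqo1 encodes a quinone reductase and is a standard readout of NRF2. On the log2 scale it measured 6.69, 6.46 and 7.27 in wild type mice under corn oil and 8.42, 9.16 and 9.26 under DCB. The hCAR/hPXR values were 6.93, 6.10 and 6.71 under corn oil and 9.37, 9.71 and 10.82 under DCB. The DCB arrays lay above every control array in both genotypes, and those of hCAR/hPXR mice lay above those of wild type mice. Nqo1 rose by 2.14 ± 0.36 log2 units (SE, n = 3 against 3; limma adjusted p = 0.00212) in wild type and 3.39 ± 0.36 (limma adjusted p = 3.31e-06) in hCAR/hPXR mice. For CARko/PXRko mice they were 6.36, 7.36 and 5.74 under corn oil and 8.48, 7.83 and 7.79 under DCB. Here too the groups did not overlap, yet the difference of 1.55 log2 units (95% interval 0.81 to 2.29) was not called (limma adjusted p = 0.0873). The highest control was replicate 2, the array with muscle transcripts: without it Nqo1 was higher by 1.99 log2 units, with a limma adjusted p of 0.00814. The part of the muscle transcripts in this was not tested. Without all arrays holding muscle transcripts, which leaves 1 DCB array, the difference was 2.43 (limma adjusted p = 0.0705), and over all 16 alternatives the adjusted p for Nqo1 in these mice ran from 0.00562 to 0.866.

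Srxn1 encodes sulfiredoxin, which restores overoxidised peroxiredoxins. Its control values were 8.74, 8.51 and 8.33 in wild type, 8.68, 8.45 and 8.32 in hCAR/hPXR, and 8.61, 8.98 and 8.27 in CARko/PXRko mice. Under DCB it measured 11.34, 10.15 and 10.52 in wild type, 11.70, 11.79 and 11.37 in hCAR/hPXR, and 10.73, 10.64 and 10.08 in CARko/PXRko mice. No DCB array overlapped a control array in any genotype, and the hCAR/hPXR arrays were the highest of the series. Srxn1 rose by 2.15 ± 0.25 log2 units in wild type (limma adjusted p = 6.12e-05), by 3.14 ± 0.25 in hCAR/hPXR (limma adjusted p = 3.74e-08) and, among CARko/PXRko mice, by 1.86 ± 0.25 (limma adjusted p = 0.000376). It was the only member called in all 3 genotypes. Without the arrays with muscle transcripts the CARko/PXRko difference was 2.29 log2 units (limma adjusted p = 0.0097), resting on 1 DCB array with its spread taken from other groups. The CARko/PXRko call was lost when only the 2 groups compared were fitted (limma adjusted p = 0.211, the highest of 16 alternatives, of which the lowest gave 0.0001).

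Gsr encodes glutathione reductase, which returns oxidised glutathione to its reduced form. It measured 9.65, 9.61 and 9.62 in wild type controls and 10.80, 10.97 and 10.71 under DCB. The hCAR/hPXR values were 9.89, 9.78 and 9.84 under corn oil and 11.23, 11.39 and 10.91 under DCB. Groups were again apart, and Gsr rose by 1.20 ± 0.19 log2 units (limma adjusted p = 0.00163) and 1.34 ± 0.19 (limma adjusted p = 0.000213). CARko/PXRko arrays measured 9.91, 9.53 and 9.95 under corn oil against 10.93, 10.58 and 10.07 under DCB, a difference of 0.73 (95% interval 0.33 to 1.13) that was not called (limma adjusted p = 0.168). The lowest of those DCB arrays was replicate 3, which held muscle, adrenal and brown fat transcripts. Without it the difference was 0.96 log2 units and was called (limma adjusted p = 0.0381, within a range of 0.0214 to 0.866 over the alternatives for Gsr). The fit without all arrays holding muscle transcripts gave a difference of similar size, listed above. Whether those tissues account for the missing call was not tested.

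Txnrd1 encodes cytosolic thioredoxin reductase. It measured 10.54, 10.40 and 10.64 in hCAR/hPXR controls and 11.50, 11.64 and 10.70 under DCB, the lowest DCB array lying just above the highest control. It rose by 0.75 ± 0.19 log2 units, or 1.68-fold (limma adjusted p = 0.0168). The call was lost without corn oil replicate 2 (limma adjusted p = 0.0855), without DCB replicate 1 (limma adjusted p = 0.0583), without DCB replicate 2 (limma adjusted p = 0.0764) and when only the 2 groups were fitted (limma adjusted p = 0.209), the lowest over the alternatives being 4.64e-06 for Txnrd1. In wild type mice it measured 10.58, 10.40 and 10.34 under corn oil and 11.25, 10.66 and 10.69 under DCB. That difference was 0.43 (95% interval 0.04 to 0.82; limma adjusted p = 0.416). CARko/PXRko values were 10.52, 10.56 and 10.65 against 11.31, 10.94 and 10.93, a difference of 0.48 (95% interval 0.09 to 0.87; limma adjusted p = 0.507). DCB arrays lay above the controls in both of these genotypes, without a call.

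Glutathione is made in 2 steps, of which the first, joining glutamate to cysteine, limits the rate. Gclc encodes the catalytic and Gclm the modifier subunit of the enzyme for that step. Gclc measured 12.18, 11.96 and 12.29 in wild type controls and 13.53, 12.57 and 13.20 under DCB. For hCAR/hPXR mice the values were 12.47, 12.65 and 12.55 against 13.44, 13.98 and 12.78, and for CARko/PXRko mice 12.15, 11.97 and 12.48 against 13.37, 12.64 and 13.19. Every DCB array was above every control of its genotype. The differences of 0.95, 0.84 and 0.87 log2 units had SEs of 0.30 and were not called (limma adjusted p = 0.177, 0.0919 and 0.396). Without DCB replicate 3 the hCAR/hPXR difference was 1.15 and was called (limma adjusted p = 0.0346; range for Gclc over the alternatives 0.00037 to 0.312).

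Gclm differed less, by 0.59 log2 units in wild type, 0.38 in hCAR/hPXR and 0.48 in CARko/PXRko livers, with SEs of 0.20 and no call (limma adjusted p = 0.224, 0.26 and 0.542). It measured 12.54, 12.33 and 12.55 under DCB in wild type mice, above controls of 11.75, 11.72 and 12.17. The hCAR/hPXR DCB values of 12.45, 12.80 and 11.99 overlapped controls of 11.79, 12.19 and 12.11. DCB values of 12.46, 12.00 and 12.38 in CARko/PXRko mice overlapped controls of 12.03, 11.42 and 11.96. A weighting of arrays by their scatter called Gclc and Gclm under DCB in wild type and hCAR/hPXR mice.

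Slc7a11 encodes the light chain of the transporter that brings in cystine, the source of cysteine for glutathione. It was dim under corn oil and CPA, from 4.55 to 5.23 log2 units, below the array medians. Under DCB it measured 8.25, 5.27 and 5.13 in wild type, 5.21, 5.77 and 7.21 in hCAR/hPXR, and 4.97, 7.25 and 4.97 in CARko/PXRko mice. One array of each group stood far above the other two. The differences were 1.33, 1.16 and 1.03 log2 units with SEs of 0.59, and none was called (limma adjusted p = 0.423, 0.244 and 0.696). A second probe set of the gene measured 3.51 to 4.07 on all corn oil and CPA arrays. It read 7.60, 3.68 and 5.69 under DCB in wild type, 6.78, 5.12 and 6.76 in hCAR/hPXR, and 4.53, 6.93 and 6.02 in CARko/PXRko mice. Thus 8 of the 9 DCB arrays were above all others on that probe set, the exception being wild type replicate 2. The CARko/PXRko values of 6.93 and 6.02 come from replicates 2 and 3, which held transcripts of other tissues, as does the 7.25 of the first probe set (replicate 2), and replicate 1 read 4.53 and 4.97. The part of those tissues was not tested. In a fit of all 45037 probe sets of the array, the second probe set differed in hCAR/hPXR mice by 2.57 ± 0.60 log2 units (limma adjusted p = 0.0203). In wild type and CARko/PXRko mice it differed by 1.89 and 2.09 without a call.

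**Figure D3:**
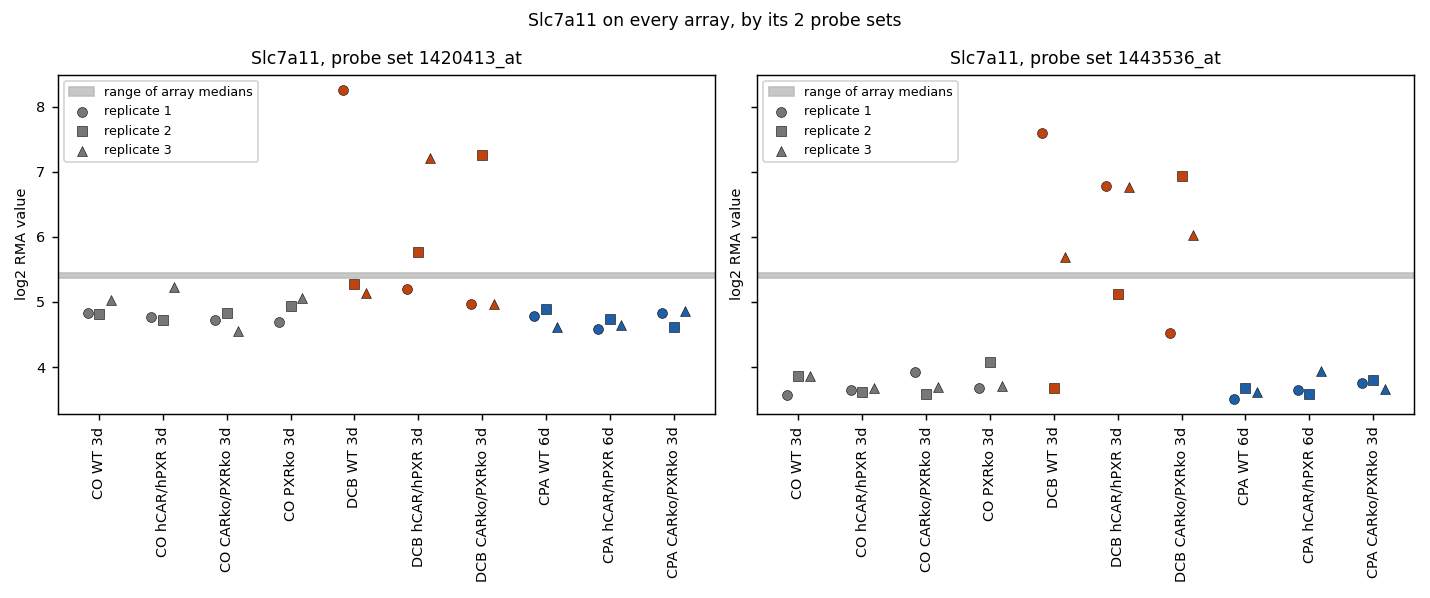
Log2 RMA value (y axis) of both Slc7a11 probe sets on every array in the 10 groups (x axis), with symbols for replicate numbers and a grey band from 5.36 to 5.44 for the array medians. On the left probe set 1 DCB array per genotype reaches 7.21 to 8.25, and on the right one 8 of 9 DCB arrays lie above 4.07, the highest other array.

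No regulator was called under DCB. Nfe2l2 under DCB measured 10.46, 10.03 and 9.83 in wild type mice against 10.38, 10.28 and 10.31, and 10.35, 10.27 and 9.98 in hCAR/hPXR mice against 10.69, 10.50 and 10.38. CARko/PXRko arrays measured 10.58, 10.14 and 10.34 against 10.09, 10.12 and 10.34. The differences were -0.22, -0.33 and 0.17 log2 units with SEs of 0.21, and none was called. Their 95% intervals, from -0.76 at the lowest bound to 0.60 at the highest, hold for the probe set used alone. On it the hCAR/hPXR arrays lay below all their controls, and the other genotypes overlapped theirs. A second probe set of Nfe2l2 averaged 6.14 under DCB against 7.06 in wild type mice, its DCB arrays all below the controls. In hCAR/hPXR mice it averaged 7.58 (highest array 9.92) against 6.86, and in CARko/PXRko mice 6.45 against 6.61. None of these was called. Keap1, the sensor, measured 9.05, 9.03 and 9.02 under DCB in wild type mice against 8.91, 8.92 and 8.78, and 9.28, 9.13 and 8.94 in hCAR/hPXR mice against 8.89, 8.93 and 8.93. In both the DCB arrays lay above all controls, as for most of the enzymes, but by differences of 0.16 and 0.20 log2 units (SE 0.12; limma adjusted p = 0.739 and 0.337). The CARko/PXRko values of 8.98, 9.07 and 9.05 overlapped controls of 9.03, 9.01 and 8.93 (0.04).

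Osgin1 encodes a growth inhibitor induced by oxidative stress. Under DCB it measured 11.03, 10.35 and 10.09 in wild type and 11.57, 9.78 and 11.07 in CARko/PXRko mice, on both sides of their controls (10.60, 10.47 and 10.53, and 10.77, 10.84 and 11.36). The hCAR/hPXR DCB values of 10.73, 10.84 and 10.48 lay below controls of 11.14, 11.18 and 11.85, a difference of -0.70 (95% interval -1.45 to 0.04; limma adjusted p = 0.246). DCB arrays lay wholly above controls for 8, 6 and 6 of the 10 members of wild type, hCAR/hPXR and CARko/PXRko livers, where 10.2%, 10% and 5.99% of all genes tested did so. The first and last of these counts include Slc7a11, which was tested only because of its DCB arrays. DCB arrays lay wholly below controls for 0, 2 (Nfe2l2 and Osgin1) and 0 members, beside 11.5%, 13.8% and 5.6% of all genes.

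Under CPA Nqo1 rose and Osgin1 fell in hCAR/hPXR and CARko/PXRko mice, and Nfe2l2 fell in CARko/PXRko mice; no other member was called. In wild type mice 0 of 10 members were called by limma, beside 0.485% of all genes called higher and 0.633% lower, and 1 (Gsr) had an unadjusted p under 0.05, as 10.3% of all genes did. Among hCAR/hPXR mice 1 member rose and 1 fell, beside 1.52% of all genes called higher and 2.9% lower. Among CARko/PXRko mice 1 rose and 2 fell, beside 2.18% higher and 3.31% lower. The median over the members was -0.03, -0.13 and 0.01 log2 units, and over all genes -0.01, -0.02 and -0.01. CPA arrays lay wholly below controls for 3, 2 and 4 members, beside 14.4%, 13% and 12.8% of all genes. They lay wholly above for 1, 2 and 1 members, beside 11.7%, 9.7% and 10.9% of all genes. CPA and DCB effects in a genotype share their corn oil arrays.

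Under CPA Nqo1 measured 6.91, 6.98 and 6.77 in wild type, 7.52, 8.32 and 7.98 in hCAR/hPXR, and 8.12, 8.17 and 8.27 in CARko/PXRko mice. The wild type arrays lay within the range of their controls, and those of the other two genotypes lay above all theirs. Nqo1 rose by 1.36 ± 0.36 log2 units in hCAR/hPXR mice (2.57-fold, limma adjusted p = 0.0273) and, among CARko/PXRko mice, by 1.70 ± 0.36 (3.26-fold, limma adjusted p = 0.00568). In wild type mice the difference was 0.08 (95% interval -0.66 to 0.82). In hCAR/hPXR mice the call was lost without corn oil replicate 2 (1.12, limma adjusted p = 0.154, the highest of the alternatives, with 0.00414 the lowest) or 3 (limma adjusted p = 0.0557), or CPA replicate 2 (limma adjusted p = 0.109) or 3 (limma adjusted p = 0.0763). The CARko/PXRko call was lost without corn oil replicate 3 (1.33, limma adjusted p = 0.0505) and when only the 2 groups were fitted (limma adjusted p = 0.104), and the lowest adjusted p of the alternatives was 0.00111. Without the arrays with muscle transcripts it was 2.14 log2 units (limma adjusted p = 0.00139).

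For Osgin1, CPA arrays measured 10.15, 9.91 and 9.73 in wild type, 9.07, 10.56 and 9.46 in hCAR/hPXR, and 9.71, 9.01 and 9.13 in CARko/PXRko mice. All lay below the controls of their genotype. Osgin1 fell by 1.69 log2 units in hCAR/hPXR mice (SE 0.36, to 0.31 of the control; limma adjusted p = 0.00639), and among CARko/PXRko mice it fell by 1.70 log2 units (SE 0.36; limma adjusted p = 0.00606). The wild type difference was -0.60 (95% interval -1.35 to 0.14; limma adjusted p = 0.651). It was called when only those 2 groups were fitted (limma adjusted p = 0.0247). In hCAR/hPXR mice the call was lost without CPA replicate 1 (-1.38, limma adjusted p = 0.0643) and when only the 2 groups were fitted (limma adjusted p = 0.0544), and the lowest adjusted p was 0.000899. In CARko/PXRko mice it held under all 16 alternatives, with an adjusted p for Osgin1 of at most 0.0419.

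Nfe2l2 measured 9.54, 9.38 and 9.00 under CPA in CARko/PXRko mice, below every other array of the series, and fell by 0.87 log2 units (SE 0.21, to 0.55 of the control; limma adjusted p = 0.016). That call was lost without corn oil replicate 3 (-0.80, limma adjusted p = 0.0691) or CPA replicate 3 (-0.72, limma adjusted p = 0.056). It was also lost with array weights (-0.95, limma adjusted p = 0.0801), with only the 2 groups fitted (limma adjusted p = 0.0856) and in the mean of its 2 probe sets (-0.60, limma adjusted p = 0.27), and the second probe set alone differed by -0.32. Over all alternatives the adjusted p for Nfe2l2 ran from 0.0057 to 0.27. In wild type mice Nfe2l2 measured 9.66, 10.15 and 9.88, below its controls (-0.42, limma adjusted p = 0.506), and in hCAR/hPXR mice 10.70, 10.14 and 9.85, overlapping them (-0.30, limma adjusted p = 0.549). In whole liver, fewer cells of a type and less RNA per cell cannot be told apart. Of 11 Kupffer cell and macrophage markers, 2, 8 and 1 were called lower under CPA in the respective genotypes (wild type, hCAR/hPXR, CARko/PXRko). The median differences of these markers from corn oil, in the same order, were -0.78, -1.24 and -0.19. Their median relative to wild type corn oil ran from -0.88 to -0.05 on CARko/PXRko CPA arrays and from -0.39 to -0.05 on the CARko/PXRko controls. Of 9 stellate cell markers, 0, 0 and 2 were called lower under CPA in the same order, with medians of -0.32, -0.82 and -0.91. The CARko/PXRko controls include replicate 2, which held muscle transcripts. Relative to wild type corn oil, its stellate marker median was 1.01, against -0.21 and -0.20 on replicates 1 and 3. The part of either cell type in the fall of Nfe2l2 and Osgin1 was not tested.

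Gclc lay on the other side of its controls under CPA than under DCB. It measured 11.43, 11.91 and 11.26 in wild type, 11.61, 12.18 and 11.02 in hCAR/hPXR, and 11.55, 10.83 and 11.62 in CARko/PXRko mice. Every one of these arrays was below all controls of its genotype, which held for 14.4%, 13% and 12.8% of all genes tested. The differences were -0.62, -0.96 and -0.86 log2 units (SE 0.30), with limma adjusted p = 0.504, 0.0782 and 0.0991. In hCAR/hPXR mice the difference was -1.24 and was called without CPA replicate 2 (limma adjusted p = 0.0244; range for Gclc over the alternatives 0.0244 to 0.318). Gclm stayed within 0.28 log2 units of corn oil, with differences of 0.07, -0.28 and -0.03.

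Gsr measured 10.36, 10.29 and 10.20 under CPA in wild type mice, all above controls of 9.61 to 9.65, a difference of 0.66 (95% interval 0.25 to 1.06; limma adjusted p = 0.116). It was called when only those 2 groups were fitted (limma adjusted p = 0.00553) and with array weights, and reached at most 0.385 over the alternatives for Gsr. The Gsr differences in hCAR/hPXR and CARko/PXRko mice were 0.20 and 0.05. Srxn1 differed by 0.10, 0.60 and 0.42 and was not called. In hCAR/hPXR mice its CPA values of 8.93, 9.07 and 9.24 were all above the controls (95% interval 0.08 to 1.11; limma adjusted p = 0.217). Differences of Txnrd1 lay between -0.04 and 0.10, those of Slc7a11 between -0.25 and 0.07, and those of Keap1 between -0.26 and 0.00.

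Whether a genotype altered the response was tested as the difference between treatment effects. By limma 0 of the 10 members were called in any of the 5 such tests, and calls over all genes were as scarce. For DCB, 0% of all genes were called in hCAR/hPXR against wild type mice, 0% in CARko/PXRko against wild type mice and 0.00782% in hCAR/hPXR against CARko/PXRko mice. An unadjusted p under 0.05 was reached by 2, 0 and 3 members, beside 3.11%, 2.53% and 6.78% of all genes. For CPA, 0.0625% of all genes were called in hCAR/hPXR and 0.0703% in CARko/PXRko against wild type mice, and 2 and 3 members had an unadjusted p under 0.05, beside 4.91% and 7.56% of all genes. The DCB effect on Nqo1 was larger in hCAR/hPXR than in CARko/PXRko mice by 1.84 log2 units (95% interval 0.79 to 2.88; limma adjusted p = 0.564), and that on Srxn1 by 1.28 (95% interval 0.55 to 2.01; limma adjusted p = 0.572). Against wild type mice these were 1.25 (95% interval 0.21 to 2.29) and 0.99 (95% interval 0.26 to 1.72), each with a limma adjusted p near 1. Between CARko/PXRko and wild type mice the DCB effect differed by -0.59 for Nqo1 (95% interval -1.63 to 0.45) and by -0.29 for Srxn1 (95% interval -1.02 to 0.44). A missing call does not show equal responses.

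**Figure D4:**
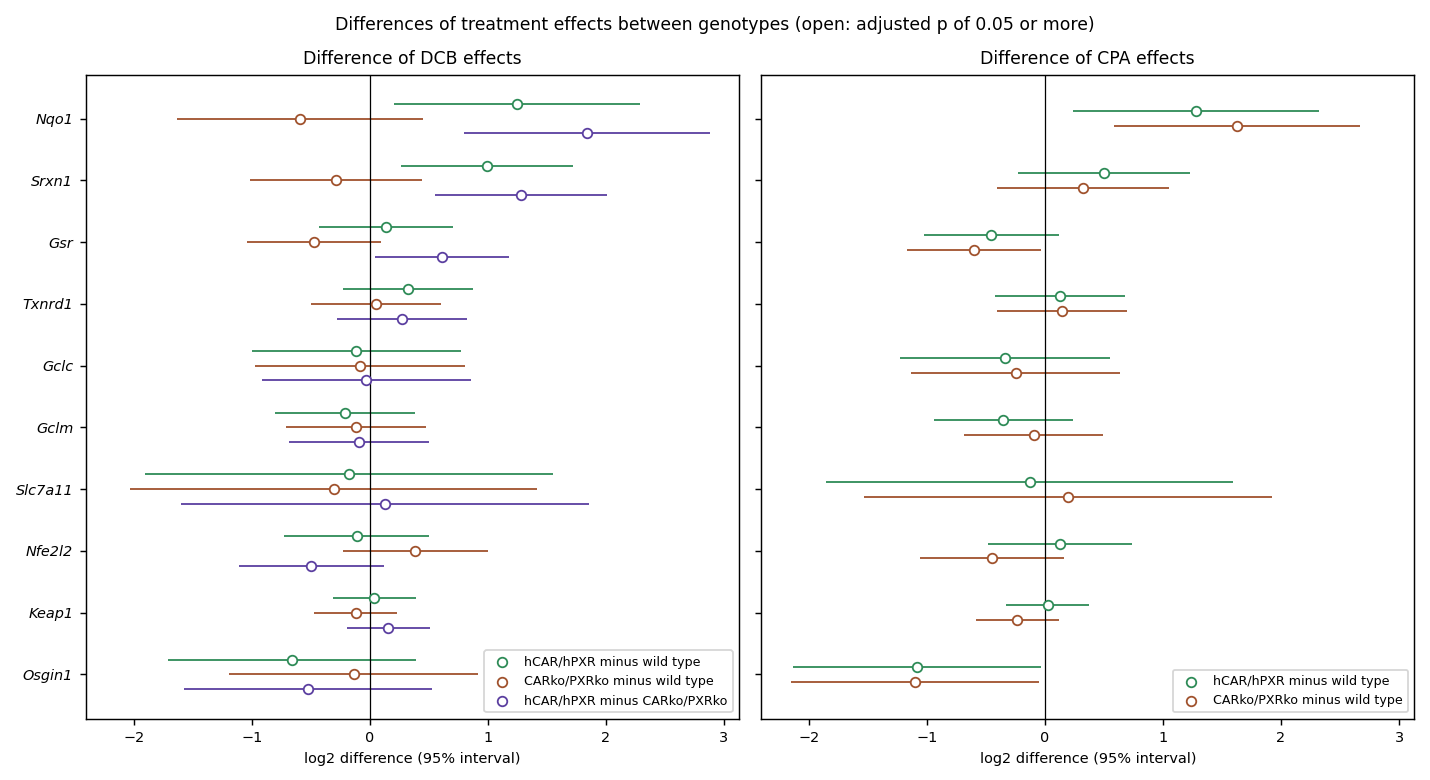
Difference between 2 genotypes in the log2 treatment effect (x axis, lines are 95% intervals, n = 3 arrays in each of 4 groups) for each gene (y axis), for DCB (left) and CPA (right). All points are open, none reaching an adjusted p under 0.05, and the intervals of Nqo1 for hCAR/hPXR minus CARko/PXRko run from 0.79 to 2.88.

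For CPA, the effect on Nqo1 was larger by 1.28 log2 units in hCAR/hPXR (95% interval 0.24 to 2.32; limma adjusted p = 0.989) and 1.62 in CARko/PXRko mice (95% interval 0.58 to 2.67; limma adjusted p = 0.395) than in wild type mice. The latter sets 3 labelled days against 6, so genotype and duration cannot be told apart there. The effect on Osgin1 was lower by the same comparisons, at -1.09 (95% interval -2.14 to -0.03) and -1.10 (95% interval -2.15 to -0.05). Its corn oil means were 11.39 in hCAR/hPXR, 10.99 in CARko/PXRko and 10.53 in wild type mice, and its CPA means 9.70, 9.28 and 9.93. The CPA arrays of hCAR/hPXR mice (9.07 to 10.56) overlapped those of wild type mice (9.73 to 10.15). The part of the corn oil levels in these differences was not tested.

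Under corn oil 0 of 10 members were called by limma between genotypes, in hCAR/hPXR, CARko/PXRko and PXRko mice against wild type or in CARko/PXRko against PXRko mice, where 0.0234%, 0.0391%, 0.0234% and 0.0156% of all genes were. Unadjusted p-values under 0.05 were held by 1.45%, 3.31%, 1.72% and 2.76% of all genes and by 1, 0, 0 and 0 members, the 1 being Osgin1 in hCAR/hPXR mice, whose 3 arrays lay above those of wild type mice by 0.85 log2 units on average (95% interval 0.11 to 1.60; limma adjusted p near 1). The other 9 members differed by -0.23 to 0.41 in that comparison. In PXRko mice Nqo1 measured 6.16, 6.49 and 6.20, a difference of -0.52 from wild type (95% interval -1.26 to 0.21).

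DCB and CPA were also set side by side within each genotype, bearing in mind that they differ in dose and, in wild type and hCAR/hPXR mice, in labelled days. In wild type mice 3 of 10 members were higher under DCB (1.26% of all genes were called higher), among hCAR/hPXR mice 6 (4.06%) and among CARko/PXRko mice 5 (4.32%), and no member was called lower (0.75%, 5.24% and 3.27% of all genes). Srxn1 and Gclc were called in each genotype: Srxn1 was 2.05, 2.54 and 1.44 log2 units higher under DCB, and Gclc 1.57, 1.80 and 1.73. The wild type call of Gclc was lost without DCB replicate 1 (1.36, limma adjusted p = 0.0642). Nqo1 was higher under DCB by 2.06 in wild type and 2.03 in hCAR/hPXR mice, but by -0.15 in CARko/PXRko mice (95% interval -0.89 to 0.58), where both compounds gave values near 8. Gsr was called in hCAR/hPXR (1.14) and CARko/PXRko mice (0.68), and Gclm (0.67) and Txnrd1 (0.67) in hCAR/hPXR mice. For Gclm and Txnrd1 the arrays of the compounds overlapped, and each call was lost without CPA replicate 1 or 3 or DCB replicate 1 or 2 (limma adjusted p = 0.0644 to 0.174 for Gclm and 0.0694 to 0.129 for Txnrd1). The CARko/PXRko call of Gsr was also lost without CPA replicate 1 (limma adjusted p = 0.0615) or DCB replicate 2 (limma adjusted p = 0.0784). Nfe2l2 (1.04) and Osgin1 (1.52) were called in CARko/PXRko mice, which are the genes that fell under CPA there, and that of Osgin1 was lost without DCB replicate 3 (limma adjusted p = 0.0556). In CARko/PXRko mice 3 calls remained without CPA replicate 2 or without DCB replicate 1, those of Gsr and Osgin1 being lost, and all 5 were lost with array weights and when only the 2 groups were fitted, and among hCAR/hPXR mice Srxn1 alone kept its call in the latter fit.

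The members had 11 further probe sets, fitted together with all 45037 probe sets of the array and adjusted over them, without the filter on dim genes. These went the same way as the one used in 56 of 66 treatment effects, and none was called in the opposite direction. The 3 further probe sets of Srxn1 differed under DCB by 0.51 to 2.42 log2 units in wild type, 0.86 to 3.34 in hCAR/hPXR and 0.38 to 1.76 in CARko/PXRko livers, the lowest each time from the same probe set, which was called in hCAR/hPXR mice alone; the other two were called in all 3 genotypes. The second probe set of Gsr rose by 1.31 and 1.22 in wild type and hCAR/hPXR mice (limma adjusted p = 0.00272 and 0.00176). The second of Gclc differed by 0.99, 1.03 and 0.94 under DCB and by -0.68, -0.92 and -0.81 under CPA, again without a call. One further probe set of Txnrd1 rose by 1.23 under DCB in hCAR/hPXR mice (limma adjusted p = 0.00109). In wild type mice it averaged 5.65 under DCB against 5.11, and in CARko/PXRko mice 5.49 under both DCB and corn oil. Under CPA in hCAR/hPXR mice it averaged 5.72 against 5.18. None of these was called. The remaining probe set of Txnrd1, below the array medians throughout, was called in no treatment effect.

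Other genes that NRF2 is known to act on were counted from a list of 27, of which 23 were tested. The list was chosen with earlier results of these data known. Under DCB 14 rose in wild type, 14 in hCAR/hPXR and 7 in CARko/PXRko livers, and none fell. Of all genes tested 0.61%, 3.29% and 0.117% were called higher there, and 0.125%, 4.35% and 0% lower. The median difference of the 23 was 1.28, 1.34 and 0.67 log2 units. The named leaders were Cbr3 (5.11, 5.82 and 4.33) and Cbr1 (1.58, 1.97 and 1.66), both carbonyl reductases, and Ugdh (1.42, 1.50 and 1.17), which makes the sugar donor for glucuronidation. Slc48a1, a haem transporter, rose by 2.02 and 1.65 in wild type and CARko/PXRko mice, and Gstm2, a glutathione transferase, by 2.61 in hCAR/hPXR mice. Under CPA 4, 3 and 2 of the 23 rose and 0, 0 and 1 fell. Of all genes 0.485%, 1.52% and 2.18% were called higher under CPA, and 0.633%, 2.9% and 3.31% lower. Gstm2 (2.09 and 2.02), Gstm3 (3.58 and 2.02) and Cbr1 (1.11 and 1.54) rose in wild type and hCAR/hPXR mice. Gstm1 (0.95) rose in wild type mice. In CARko/PXRko mice Cbr1 (1.50) and Gsta2 (1.38) rose and Gsta4 fell by 1.24.

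Of 17 tested genes for synthesis, amino acid supply and peroxidases, 0 were called under DCB in wild type and CARko/PXRko mice, and 3 rose in hCAR/hPXR mice, where 3.29% of all genes did: Gpx2 (1.84) and Gpx4 (0.52), glutathione peroxidases, and Glrx (1.10), glutaredoxin. The median of the 17 was 0.26, 0.36 and 0.33 log2 units for wild type, hCAR/hPXR and CARko/PXRko livers. Glrx rose under CPA in all 3 genotypes (1.06, 1.29 and 0.99), and Ahcy, which splits S-adenosylhomocysteine, rose in CARko/PXRko mice (0.70). Slc3a2, the heavy chain that pairs with the product of Slc7a11, differed by 0.83, 0.61 and 0.60 under DCB without a call. Of 13 tested thioredoxin, peroxiredoxin and superoxide enzymes, 0 were called under DCB in wild type and CARko/PXRko mice and 5 in hCAR/hPXR mice, where calls over all genes were also more common. By the test of the difference of DCB effects, 0 of the 13 were called in hCAR/hPXR against wild type or against CARko/PXRko mice. In hCAR/hPXR mice Txn1 (0.50), Txn2 (0.50) and Prdx3 (0.54) rose, while Txnip, an inhibitor of thioredoxin, fell by 1.52 and Prdx4 fell by 0.83. Under CPA 0, 0 and 1 of these 13 were called, beside 1.12%, 4.42% and 5.49% of all genes, Txnrd3 falling by 0.66 in CARko/PXRko mice. Among 12 partners and regulators of NRF2, 0 were called under DCB in any genotype. Under CPA 1 was called, Maff in hCAR/hPXR mice, which was lower, as were 2.9% of all genes there.

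Genes most like a member were those with the smallest mean absolute difference from it over the 10 group means, each gene centred on its own average. For Nqo1, whose group means spanned 3.68 log2 units, these were Tfrc (0.34), Srxn1 (0.35) and Amn (0.40). For Srxn1, spanning 3.14, they were Amn (0.19), Nol3 (0.20) and Fbxo2 (0.22). Gsr, spanning 1.55, was nearest to Entpd5 (0.10), Psmb5 (0.11) and Psmd5 (0.12), the last a proteasome assembly factor and Psmb5 a proteasome subunit. Osgin1, spanning 2.10, was nearest to Tgm2, Nrp1 and Dock10, at 0.19 each. Nfe2l2 (1.22) was nearest to Zbtb20, Trip6 and Sgpl1, and Txnrd1 (0.88) to Wdr73, Gpatch4 and Ppan.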

How the data were processed

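Liver RNA was hybridised to Affymetrix arrays, 1 sample each. The deposited values are log2 probe set summaries made by the authors with RMA, per the submitters' processing notes; the version is not given in the sources used here. Scanner files were not used. The 45037 probe sets were named from the platform annotation (34945 with 1 gene, 932 with several, 9160 with none). Groups were taken from the sample titles. All 30 arrays entered one model in limma 3.58.1 (R 4.3.3, lmFit and eBayes, two-sided), each group having its own mean (20 residual degrees of freedom, prior 3.62). It gave 18 comparisons, each adjusted over 12795 genes by Benjamini-Hochberg. Positions and promoter sequences came from RefSeq tables (GRCm38.p6). The number of arrays limits the precision. The fit was tested on simulated data. No 2 arrays held identical values.

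All 10 members are named. From each further list, up to 4 called genes with the smallest p per comparison are named (Slc3a2 was named after its values were seen), and for each member called in a treatment effect the 3 genes most like it. Members and lists were chosen with earlier results of these data known. Alternatives were the filter, the normalization, the probe set, the variance prior, array weights, the groups fitted, a replicate block, and leaving out arrays.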

Additional observations from a re-analysis of the deposited data

How the results depend on the processing

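Of 180 results for single members, 146 kept their side of the threshold under every alternative tried. None that was called changed sign, whereas values without a call did so in 154 cases. Of the 27 called results, 10 kept their call throughout. Array weights, whose estimation stopped before it converged, gave 5 called members for DCB in wild type, 3 for DCB in CARko/PXRko, 3 for CPA in wild type, 6 for DCB against CPA in wild type and 0 for DCB against CPA in CARko/PXRko mice. Fitting only the groups compared gave 0 for DCB in CARko/PXRko, 2 for CPA in wild type, 1 for CPA in hCAR/hPXR, 1 for CPA in CARko/PXRko, and for DCB against CPA 5 in wild type, 1 in hCAR/hPXR and 0 in CARko/PXRko livers. Averaging all probe sets of a gene gave 3 for DCB against CPA in CARko/PXRko mice. The causes were not tested. Leaving out 1 array gave 1 to 2 for DCB in CARko/PXRko, 1 to 2 for CPA in hCAR/hPXR, 1 to 3 for CPA in CARko/PXRko and 3 to 5 for DCB against CPA in CARko/PXRko mice.

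Over all genes, calls for DCB numbered 94 in wild type (969 with array weights, 37 to 115 leaving out an array), 978 in hCAR/hPXR (2993 and 337 to 1056; 82 with only the groups compared) and 15 in CARko/PXRko mice (168 and 6 to 72; 0 with only the groups compared). For CPA they numbered 143 in wild type (1798 and 38 to 112; 774 with only the groups compared), 566 in hCAR/hPXR (1147 and 257 to 562) and 702 in CARko/PXRko livers (290 and 282 to 929; 136 with only the groups compared).

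Whether replicate numbers pair the samples was not settled. The median correlation of deviations was 0.05, -0.04 and 0.02 for replicates 1, 2 and 3, and 0.01 between different numbers. It was over 0.1 in 18, 9 and 15 of 45 pairs for replicates 1, 2 and 3, with a highest value of 0.57. Between different numbers it was over 0.1 in 59 of 270 pairs, with a highest value of 0.67. Low medians from groups of 3 cannot exclude pairing. With the replicate number as a block the called members numbered 3, 4 and 1 under DCB and 0, 2 and 3 under CPA, as without it.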
